A study of Mus musculus with 4 samples.

Results

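The genes described here are 9 genes of red blood cell development, followed through RNA-seq of sorted cells from the mouse main olfactory epithelium (MOE). They are *Alas2*, the hemoglobin genes *Hba-a1*, *Hba-a2*, *Hbb-bs*, and *Hbb-bt*, *Slc4a1*, *Epb42*, *Ahsp*, and *Klf1*. They were chosen by values in the same 4 libraries, because the hemoglobin genes were listed at 0 while *Alas2* was detected in reporter-negative cells. Those values are therefore a description. Of the 24421 genes with values, 8 are among these 9 genes. *Epb42* carries its older symbol *Epb4.2* in the deposited values, and *Ahsp* was not analysed here.

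The study placed TAAR enhancer 1 or TAAR enhancer 2, which lie in the cluster of trace amine-associated receptor genes, before the minimal promoter of Hsp68 and a reporter gene. The TAAR enhancer 1-GFP transgenic mice gave a GFP-negative and a GFP-positive library, and the TAAR enhancer 2-tdTomato transgenic mice gave a tdTomato-negative and a tdTomato-positive library, so that each of the 4 groups has 1 library. The sample labels give the strain of all mice as C57BL/6, the methods name eggs of C57BL/6J mice for the PiggyBac transgenes, and the reporting summary places its mouse lines on backgrounds of C57BL/6J mixed with 129. Each line came from 1 founder. The labels call the mice adult, while the study's reporting summary gives early postnatal ages for both lines and names male and female mice. Cells were freed with papain, filtered, and sorted for the reporter, and the methods name neither perfusion nor lysis of red cells. The comparisons ask which transcripts differ between reporter-positive and reporter-negative cells of each line.

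The values are TPM (transcripts scaled to the same total in every library), a length-corrected share of a library, so that levels of different genes can be compared within a library. Each library sums to 1000000 TPM and its depth is unknown. With 1 library per group there is no replicate check and no p-value, and every difference below compares single libraries. In such bulk samples, fewer cells of a type and less RNA per cell cannot be told apart. The libraries held the defining genes of the labelled tissue. The 12 marker genes of mature olfactory sensory neurons (OSNs) summed to 28264 and 29123 TPM in GFP-negative and tdTomato-negative cells and to 3131 and 13119 TPM in GFP-positive and tdTomato-positive cells.

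Red blood cells form from precursors in the bone marrow and, in young animals, the spleen and liver. The transcription factors GATA1 and KLF1 switch on genes for heme synthesis, globin chains, and the proteins of the red cell membrane. ALAS2 is the 5-aminolevulinate synthase of these cells and catalyses the first step of heme synthesis, while its paralog ALAS1 serves other cells and supplies heme to enzymes such as the cytochromes P450. Alpha and beta globin chains bind heme to form hemoglobin, and globin transcripts dominate late red cell precursors.

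*Alas2* was the highest of the 8 genes in every library. In the GFP line it was at 63.7 TPM in negative against 4.58 TPM in positive cells, and in the tdTomato line at 26.3 TPM against 6.15 TPM. Both reporter-negative libraries thus lay above both reporter-positive libraries. Its level was 13.9 times lower in GFP-positive than in GFP-negative cells, and 4.27 times lower in tdTomato-positive than in tdTomato-negative cells. On the log2(TPM + 1) scale these differences were -3.54 and -1.93, against medians of -0.74 over the 17963 genes above 0 TPM in either library of the GFP line and -0.19 over 16752 such genes in the tdTomato line. With both reporters, mature OSN markers moved in the same direction, with median differences of -3.02 in the GFP line and -1.02 in the tdTomato line. Their part in the *Alas2* difference was not tested. The levels of *Alas2* per 1000 TPM of *Omp*, the olfactory marker protein, were 6.65 in negative against 4.13 in positive cells of the GFP line, and 2.60 against 1.39 in the tdTomato line.

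*Alas2* lies on chromosome X from 150547375 to 150570638 of GRCm38, the assembly also called mm10, and has 11 exons in its longest coding transcript of 2037 bases. None of its 50-base transcript windows occurs in another coding gene. Of its exon bases, 12.9% also lie in an exon of *Apex2*, a DNA repair gene on the opposite strand. *Apex2* was at 3.36, 4.83, 8.42, and 9.06 TPM in GFP-negative, GFP-positive, tdTomato-negative, and tdTomato-positive cells, so its order was not that of *Alas2*. The methods name Smart-seq2 for libraries of sorted cells, a procedure that keeps no strand, while the sample labels name another library kit (VAHTS universal V6), so reads of both genes in the shared bases may not have been told apart.

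The 4 adult hemoglobin genes were listed at 0 TPM in all 4 libraries. The same held for the other 8 hemoglobin genes with values, which are *Hbb-b1*, *Hbb-b2*, the embryonic *Hba-x*, *Hbb-y*, and *Hbb-bh1*, the beta-like *Hbb-bh2*, and the theta-like *Hbq1a* and *Hbq1b*. This makes 12 of 12, of which *Hbb-b1* and *Hbb-b2* have no position in the annotation used here and are symbols of another beta globin haplotype than *Hbb-bs* and *Hbb-bt*, so that their zeros add no separate observation. Of all 24421 genes, 24.6% were listed at 0 in all 4 libraries. Genes next to the clusters, chosen after their values were seen, did have values. *Nprl3*, beside the alpha cluster, was between 12.6 and 29.3 TPM, and the odorant receptor gene *Olfr67*, beside the beta cluster, was between 3.57 and 32.8 TPM. Of the 8 such genes, 6 were above 0 in all 4 libraries. *Olfr68* was listed at 0 in tdTomato-positive cells, and *Olfr66* had a value of 0 in each reporter-negative library and of 0.665 and 61.6 TPM in GFP-positive and tdTomato-positive cells.

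**Figure D1:**
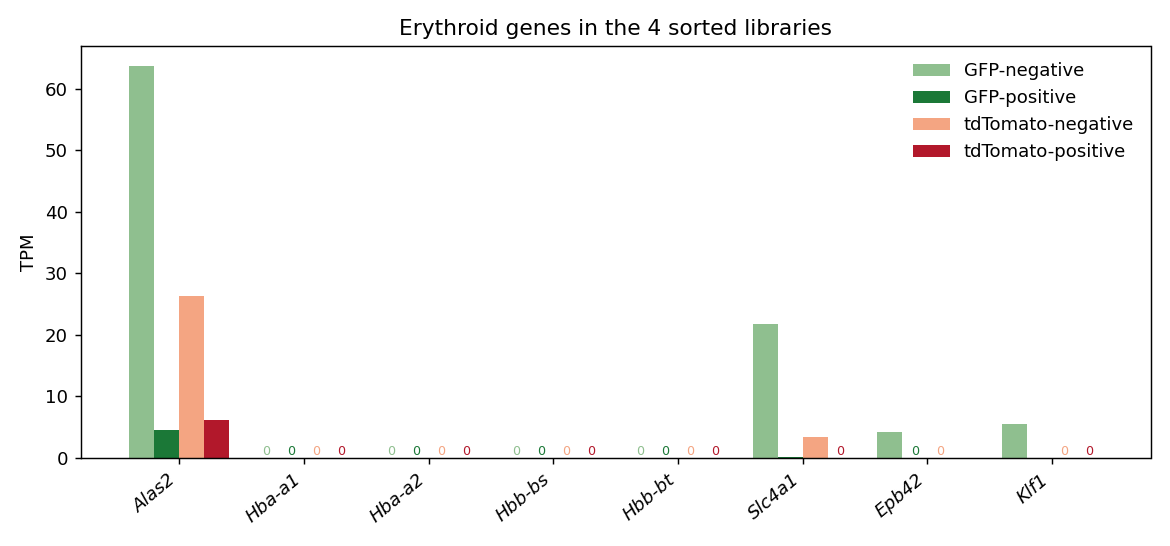
TPM of the 8 erythroid genes with values (horizontal axis) in the 4 libraries (bars, 1 library each, with 0 written where a gene was listed at 0). *Alas2* is the highest gene in each library, GFP-negative cells have the highest value of every gene above 0, and the 4 hemoglobin genes have no value above 0.

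The alpha globin genes *Hba-a1* (chromosome 11, 32283511 to 32284465, plus strand) and *Hba-a2* (32296489 to 32297298, plus strand) are close copies. Of the 650 distinct 50-base windows in the coding transcripts of *Hba-a1*, 439 (67.5%) also occur in *Hba-a2*, and these are 86.9% of the 505 windows of *Hba-a2*. The beta globin genes *Hbb-bs* (chromosome 7, 103826534 to 103828096, minus strand) and *Hbb-bt* (103812524 to 103813996, minus strand) share 381 windows, which are 57.5% and 58.3% of their totals. A read from shared sequence can be assigned to either copy, split, or dropped, depending on the tool. Among coding genes in the deposited values, the percent listed at 0 in all 4 libraries was 12.2% for the 14610 genes without a shared window and 17.8% for the 4303 genes that share under 20% of their windows. It was 44.8% for the 1092 genes that share from 20 to under 80%, and 77.9% for the 502 genes that share 80% or more. Shared sequence therefore went with zero values across all genes, and its part in the hemoglobin values was not tested.

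Shared sequence did not always go with zero values. The heat shock genes *Hspa1a* and *Hspa1b* share 60.3% and 62.3% of their windows and were above 30 TPM in every library, with 34.8 and 60.6 TPM in GFP-negative cells. By contrast, *Eif3j1* and *Eif3j2*, which encode a subunit of a general translation initiation factor, share 39.4% and 90.8% of their windows and were listed at 0 in all 4 libraries. A value of 0 in these data is for this reason given only as listed. The embryonic globin genes, which adult cells are known not to use, share no window and were also at 0, as was *Hbb-bh2*, which shares none either. The 15 genes used by nearly all cells, such as *Actb* and *Gapdh*, were above 1 TPM in every library.

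**Figure D2:**
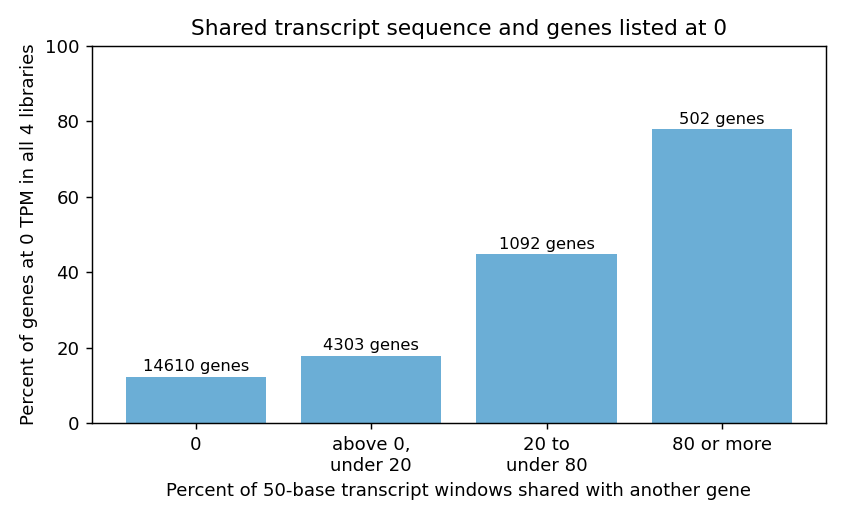
Percent of coding genes listed at 0 TPM in all 4 libraries (vertical axis) by the percent of their 50-base transcript windows that occur in another coding gene (horizontal axis), with the number of genes over each bar. The percent rises from 12.2% of the genes without shared windows to 77.9% of those with 80% or more.

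The 250 bases before the RefSeq transcript starts of both alpha genes are shown because they let the close copies be compared beyond the transcripts, and because they hold the motifs of the red cell factors. Capitals mark AGATAA as well as AGATAG, and likewise TGATAA as well as TGATAG, bound by GATA factors, and CACCC, bound by KLF1 and related factors, on either strand. The sequences are from RefSeq, build GRCm38.p6, plus strand, at chr11:32283422-32283671 for *Hba-a1* and chr11:32296242-32296491 for *Hba-a2*. In an alignment of both stretches, 247 of 250 bases were the same. The others lie at the ends, where the stretches are offset, so that no base differs within the part they share. Each holds 1 GATA motif and 2 CACCC motifs.

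Hba-a1: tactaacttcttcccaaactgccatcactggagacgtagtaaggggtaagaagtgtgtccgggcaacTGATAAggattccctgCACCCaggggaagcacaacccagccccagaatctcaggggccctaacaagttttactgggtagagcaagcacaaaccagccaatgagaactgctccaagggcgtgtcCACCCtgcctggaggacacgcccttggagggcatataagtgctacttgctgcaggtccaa

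Hba-a2: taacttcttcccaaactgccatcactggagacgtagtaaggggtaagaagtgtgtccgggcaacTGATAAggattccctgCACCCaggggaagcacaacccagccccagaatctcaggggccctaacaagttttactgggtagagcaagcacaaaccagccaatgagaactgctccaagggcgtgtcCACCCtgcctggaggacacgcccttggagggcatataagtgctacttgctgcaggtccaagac

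The other members with values are a membrane protein gene, a gene of the membrane skeleton, and a transcription factor gene. *Slc4a1* encodes band 3, the anion exchanger of the red cell membrane, and lies on chromosome 11 from 102348824 to 102366203. In the GFP line it was at 21.8 TPM in negative and 0.154 TPM in positive cells. In the tdTomato line it was at 3.43 TPM in negative cells and listed at 0 in positive cells. It was 142 times lower in GFP-positive than in GFP-negative cells, although the lower level was far below 1 TPM.

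*Epb42* encodes protein 4.2, which binds band 3 to the membrane skeleton, and lies on chromosome 2 from 121017891 to 121037072. It was at 4.24 TPM in GFP-negative cells, at 0.017 TPM in tdTomato-positive cells, and listed at 0 in the other two libraries. *Klf1* encodes the factor that drives adult globin genes and lies on chromosome 8 from 84901928 to 84905291. In the GFP line it was at 5.56 TPM in negative against 0.0254 TPM in positive cells, and it was listed at 0 in both libraries of the tdTomato line. Both genes were thus above 1 TPM in GFP-negative cells and in no other library. No 50-base window of *Slc4a1*, *Epb42*, or *Klf1* occurs in another coding gene.

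The 4 members above 0 TPM were the same 4 that were above 1 TPM in any library, and they summed to 95.4 TPM in negative against 4.76 TPM in positive cells of the GFP line, and to 29.7 TPM against 6.17 TPM in the tdTomato line. All 4 were at least 2-fold lower in GFP-positive than in GFP-negative cells on the log2(TPM + 1) scale, where 40.5% of the 17963 genes were called by the same rule. By this rule 7283 genes were lower and 2291 higher in the GFP line, against 3514 and 3668 after median-ratio scaling of the libraries. In the tdTomato line 2 of them, *Alas2* and *Slc4a1*, were at least 2-fold lower in positive cells, where 21.9% of the 16752 genes were called. Below, a share of all genes called by this rule is likewise over the genes above 0 TPM in either library. Since reporter-negative values of *Alas2* entered the choice of these genes, nothing is read from these counts. With a pseudocount of 10, *Epb42* (-0.51) and *Klf1* (-0.63) in the GFP line and *Slc4a1* (-0.43) in the tdTomato line were less than 2-fold lower, as was *Alas2* in both lines (-0.71 and -0.94) with scaling to mature OSN markers.

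The promoters of *Alas2*, *Klf1*, and *Epb42* are shown because these genes were highest in the same library, in the same form as above. They lie at chrX:150547167-150547416 (plus strand), chr8:84901732-84901981 (plus strand), and chr2:121036878-121037127 (minus strand) of GRCm38.p6. *Alas2* holds 1 GATA motif and 3 CACCC motifs, *Klf1* holds 1 of each, and *Epb42* holds 1 GATA motif. Of 32851 RefSeq promoters of this length, 26.5% hold a GATA motif, 52.0% a CACCC motif, and 11.8% both. A match of letters is not evidence of binding. The gene starts of the GENCODE annotation lie inside all 5 printed stretches.

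Alas2: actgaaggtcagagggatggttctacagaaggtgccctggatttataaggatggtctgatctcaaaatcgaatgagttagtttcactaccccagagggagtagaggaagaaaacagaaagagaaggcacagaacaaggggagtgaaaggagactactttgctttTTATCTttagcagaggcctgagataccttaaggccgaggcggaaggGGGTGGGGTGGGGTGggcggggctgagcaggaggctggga

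Klf1: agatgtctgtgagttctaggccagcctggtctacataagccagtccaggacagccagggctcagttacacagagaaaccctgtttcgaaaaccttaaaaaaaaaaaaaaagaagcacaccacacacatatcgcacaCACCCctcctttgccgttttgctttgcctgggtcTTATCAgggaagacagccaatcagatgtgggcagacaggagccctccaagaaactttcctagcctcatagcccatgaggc

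Epb42: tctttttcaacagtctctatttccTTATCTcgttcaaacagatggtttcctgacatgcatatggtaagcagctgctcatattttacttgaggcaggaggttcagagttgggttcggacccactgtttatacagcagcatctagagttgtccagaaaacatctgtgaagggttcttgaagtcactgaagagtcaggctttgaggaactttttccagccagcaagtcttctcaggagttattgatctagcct

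The libraries of reporter-negative cells differed from each other. *Alas2* was 2.43 times higher in GFP-negative than in tdTomato-negative cells, and *Slc4a1* was 6.36 times higher. *Epb42* and *Klf1* were listed at 0 in tdTomato-negative cells. All 4 were at least 2-fold higher in GFP-negative cells on the log2(TPM + 1) scale, where 11.5% of the 17130 genes above 0 TPM in either library were called, and the median over those genes was -0.03. Nothing is read from this count either, since reporter-negative values entered the choice and *Epb42* and *Klf1* were above 1 TPM through GFP-negative cells alone. The members did not keep 1 ratio. The TPM of *Alas2* was 2.92 times that of *Slc4a1* in GFP-negative cells, 7.65 times in tdTomato-negative cells, and 29.8 times in GFP-positive cells. The last ratio rests on *Slc4a1* at only 0.154 TPM, and tdTomato-positive cells give no ratio, as *Slc4a1* was listed at 0 there. The reporter, the line, and the sort differ between these libraries and cannot be told apart, and the ages given for both lines overlap.

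Because hemoglobin genes had no values above 0, a list of 11 other genes, taken as largely restricted to red cell precursors, was examined. Other blood cells can use some of them, and the restriction was not tested here. In GFP-negative cells 9 of the 11 were above 1 TPM, compared with 1 in GFP-positive, 2 in tdTomato-negative, and 1 in tdTomato-positive cells. Over all 24421 genes, from 56.7% (tdTomato-positive) to 61.5% (GFP-negative) were above 1 TPM. Above 5 TPM were 5 of the 11 in GFP-negative cells and none in the others. The summed TPM of the list was 52.1 in GFP-negative, 2.75 in GFP-positive, 3.83 in tdTomato-negative, and 2.26 in tdTomato-positive cells, and was thus 13.6 times higher in GFP-negative than in tdTomato-negative cells.

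The highest was *Hemgn*, which encodes the nuclear protein hemogen, at 11.6 TPM in GFP-negative cells and listed at 0 in the other three libraries. The same pattern was found for the Rh blood group genes *Rhd* at 8.02 TPM and *Rhag* at 3.93 TPM, for *Trim58* at 3.41 TPM, and for *Gata1*, the gene of the master regulator, at 3.57 TPM. Of the 15022 genes above 1 TPM in GFP-negative cells, 320 (2.13%) were listed at 0 in the other three libraries. *Kel*, a blood group antigen gene, was at 6.85 TPM in GFP-negative and 2.39 TPM in tdTomato-negative cells and at 0 in both positive libraries. *Trim10* was at 6.75, 2.15, and 1.43 TPM in GFP-negative, GFP-positive, and tdTomato-negative cells, and was listed at 0 in tdTomato-positive cells. *Ermap* was at 5.50 TPM in negative against 0.188 TPM in positive cells of the GFP line, but in the tdTomato line it was listed at 0 in negative and was at 0.649 TPM in positive cells.

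Of these 11 genes, 9 were above 0 TPM in either library of the GFP line. All 9 were at least 2-fold lower in GFP-positive than in GFP-negative cells (40.5% of all genes). Only 3 of the 11 were above 0 TPM in GFP-positive cells, so nothing is read from this count. In the tdTomato line 4 were above 0 TPM in either library. Of these, 2 were lower (21.9% of all genes) and 1 was higher (16.2%) in positive cells by this rule. Between the reporter-negative libraries, 9 of the 11 were at least 2-fold higher in GFP-negative cells, against 11.5% of all genes, and none was lower. Nothing is read from this count either, since only 2 of the 11 were above 0 TPM in tdTomato-negative cells. The others could be called only through GFP-negative cells, and the comparison was added after values were seen. *Car1*, which encodes the carbonic anhydrase of red cells, was listed at 0 in all 4 libraries, and *Epor*, the erythropoietin receptor gene, was listed at 0 in both libraries of the GFP line and in tdTomato-negative cells and was at 1.62 TPM in tdTomato-positive cells.

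**Figure D3:**
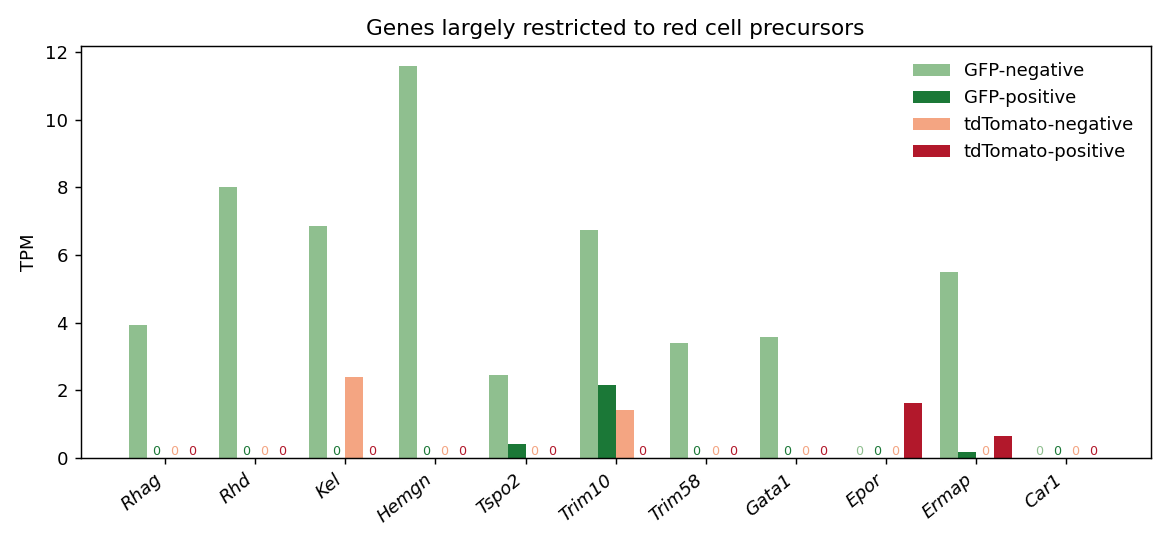
TPM of 11 genes taken as largely restricted to red cell precursors (horizontal axis) in the 4 libraries (bars, 1 library each, with 0 written where a gene was listed at 0). GFP-negative cells have the highest bar for 9 genes, led by *Hemgn* at 11.6 TPM, and *Car1* has no value above 0.

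Marker genes of other blood cells and of blood vessels were set beside the red cell genes. A list of 8 genes of granulocyte and B cell precursors, chosen after values were seen, summed to 286.6 TPM in negative against 3.57 TPM in positive cells of the GFP line, and to 20.4 TPM against 9.85 TPM in the tdTomato line. All 8 were at least 2-fold higher in GFP-negative than in tdTomato-negative cells, against 11.5% of all genes, and nothing is read from this count since the values chose the list. Among them, *Elane*, the neutrophil elastase gene made at the promyelocyte stage, was at 33.7 TPM in GFP-negative cells and listed at 0 in the other three libraries, and *Mpo* (myeloperoxidase) was at 40.7 TPM in GFP-negative and 2.04 TPM in tdTomato-negative cells. *Igll1*, part of the surrogate light chain of B cell precursors, was at 36.3 and 7.16 TPM in these libraries. The 5 genes of neutrophil granules and calprotectin summed to 9625 and 2352 TPM in GFP-negative and tdTomato-negative cells, a ratio of 4.09. They summed to 1754 and 290 TPM in GFP-positive and tdTomato-positive cells. *Ltf* alone of the 5 was higher in GFP-positive cells, at 1691 TPM against 665 TPM in GFP-negative cells, and it made up most of the GFP-positive sum.

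General leukocyte genes differed between the reporter-negative libraries by a ratio of 1.11 in summed TPM. The 5 genes *Ptprc*, *Cd52*, *Coro1a*, *Laptm5*, and *Lcp1* summed to 1684 TPM in GFP-negative and 1518 TPM in tdTomato-negative cells, and to 96.2 and 89.8 TPM in GFP-positive and tdTomato-positive cells. The 8 endothelial genes summed to 58.0 and 46.4 TPM in the negative libraries, of which *Pecam1*, which leukocytes also express, made up 41.2 and 41.0 TPM. Without it the other 7 summed to 16.8 and 5.41 TPM. Of the 8, 4 were at least 2-fold higher in GFP-negative than in tdTomato-negative cells (11.5% of all genes), and 1 was lower (10.6%), namely *Cdh5* (VE-cadherin) at 0.0622 against 1.79 TPM. The 10 platelet genes summed to 3.95 TPM in GFP-negative and 31.6 TPM in tdTomato-negative cells, of which *Pf4* was 25.7 TPM, and 4 of the 10 were at 0 in all 4 libraries. They summed to 17.2 TPM in GFP-positive and 25.0 TPM in tdTomato-positive cells, so that this list was higher in positive cells of the GFP line. The part of these cell types in the red cell values was not tested.

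**Figure D4:**
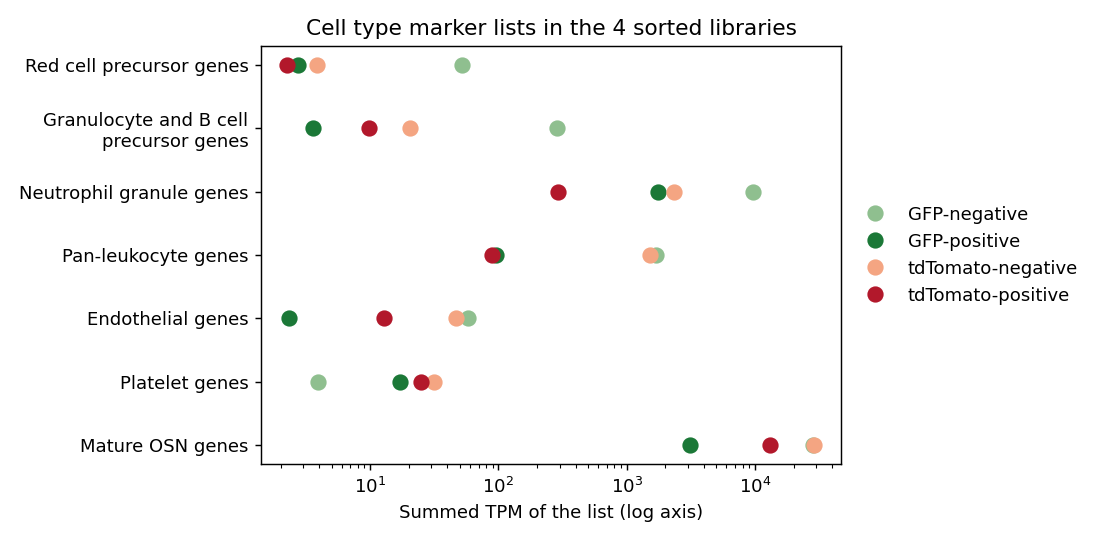
Summed TPM (horizontal log axis) of 7 lists of marker genes (rows) in the 4 libraries (points, 1 library each). For the red cell precursor list the GFP-negative point is at 52.1 TPM and the tdTomato-negative point at 3.83 TPM, while for pan-leukocyte and mature OSN genes the points of the reporter-negative libraries nearly coincide.

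Genes of heme synthesis were then followed in pathway order. *Alas1*, the counterpart of *Alas2*, was at 21.7 TPM in negative against 120.7 TPM in positive cells of the GFP line, and at 48.7 TPM against 137.5 TPM in the tdTomato line. It was thus higher in positive cells of both lines, by 5.56-fold and 2.82-fold, while *Alas2* was lower. *Alas2* made up 74.6% of the summed TPM of both genes in GFP-negative cells and 35.0% in tdTomato-negative cells, but only 3.66% and 4.28% in the corresponding positive cells. The sum of both changed less, from 85.5 to 125.3 TPM in the GFP line and from 75.0 to 143.6 TPM in the tdTomato line. The summed markers of sustentacular cells, which are rich in cytochromes P450, were also higher in positive cells. The 5 genes of that list summed to 1272 TPM in negative against 12478 TPM in positive cells of the GFP line, and to 2148 TPM against 10301 TPM in the tdTomato line. All 5 were at least 2-fold higher in GFP-positive cells (12.8% of all genes), while in the tdTomato line *Cyp2a5* and *Cbr2* were higher (16.2%) and *Cyp2g1* was lower (21.9%), and their part in the *Alas1* values was not tested. Multiciliated cell genes were higher with *Alas1* as well. The 5 genes of that list summed to 202.4 TPM in negative against 1223 TPM in positive cells of the GFP line, and to 213.0 TPM against 4390 TPM in the tdTomato line, with 4 of 5 at least 2-fold higher in the first (12.8% of all genes) and 5 of 5 in the second (16.2%), and their part was not tested either.

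The 6 later enzymes examined did not move as a block. *Uros* (44.2 to 12.6 TPM) and *Ppox* (150.5 to 53.0 TPM) were at least 2-fold lower in GFP-positive than in GFP-negative cells, where 40.5% of genes were called lower. The direction of both genes, and that of *Hmox1* in this line, turned when the libraries were scaled to mature OSN markers, which shifted the median of all genes by 2.63. *Alas1* and *Alad*, which makes porphobilinogen (10.2 to 22.4 TPM), were at least 2-fold higher there, where 12.8% of genes were called higher. In the tdTomato line none of the 7 enzymes other than *Alas2* was at least 2-fold lower (21.9% of all genes), and *Alas1* and *Fech*, which inserts iron into the ring (24.4 to 57.6 TPM), were at least 2-fold higher, where 16.2% of genes were called. The median difference of the 7 genes was 0.19 in the GFP line and 0.42 in the tdTomato line, against -0.74 and -0.19 over all genes above 0 TPM in either library. With median-ratio scaling it was 1.05 in the GFP line, where *Uros* (-0.90) and *Ppox* (-0.62) were then less than 2-fold lower. Exons of *Ppox* share 17.5% of their bases with *B4galt3* on the opposite strand.

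**Figure D5:**
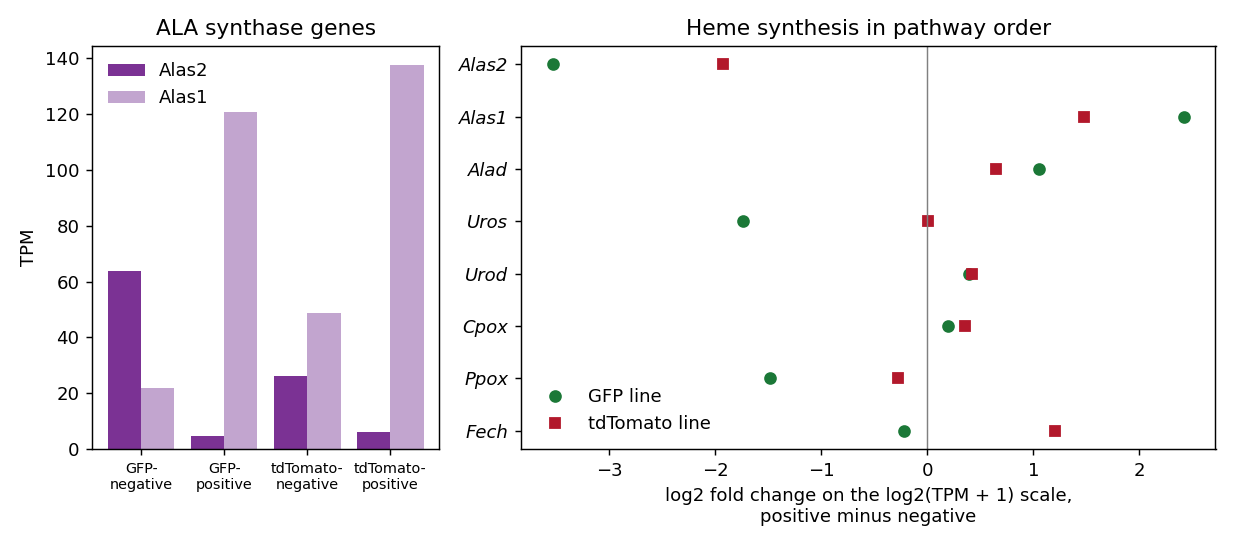
Left, TPM of *Alas2* and *Alas1* in the 4 libraries (bars, 1 library each). Right, difference on the log2(TPM + 1) scale between positive and negative cells for 8 genes of heme synthesis in pathway order, with circles for the GFP line and squares for the tdTomato line. *Alas2* is at -3.54 and -1.93, and *Alas1* is at 2.42 and 1.48.

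Transport, breakdown, and storage of heme and iron involve genes that most cells use. Of 15 genes for transport of heme and mitochondrial iron and for iron-sulfur assembly, 4 were at least 2-fold lower (40.5% of all genes) and 1 was higher (12.8%) in positive cells of the GFP line, against 1 lower (21.9%) and 2 higher (16.2%) in the tdTomato line. The mitochondrial iron importer gene *Slc25a37* was at 47.6 and 57.4 TPM in GFP-negative and tdTomato-negative cells, and its summed list differed between these libraries by a ratio of 1.05. Of 14 genes of iron uptake, storage, and export, 2 were lower (40.5% of all genes) and none was higher by this rule in the GFP line. In the tdTomato line 12 of the 14 were above 0 TPM in either library, of which 1 was lower (21.9%) and 1 higher (16.2%). *Tfrc*, the transferrin receptor gene, was between 45.6 and 51.5 TPM in all 4 libraries, and *Tfr2* was at 0.784 TPM in GFP-negative cells and below 0.1 TPM elsewhere.

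*Hmox1*, the inducible heme oxygenase that breaks heme down, was highest in tdTomato-negative cells. It was at 55.1 TPM in negative against 19.6 TPM in positive cells of the GFP line, and at 241.3 TPM against 19.9 TPM in the tdTomato line. The order of the reporter-negative libraries was thus the opposite of that of *Alas2*. The constitutive *Hmox2* was at 231.6, 106.0, 261.2, and 170.4 TPM in the same order of libraries. Of the 4 genes of heme breakdown, 3 were at least 2-fold lower in the GFP line, where 40.5% of all genes were, and 1 in the tdTomato line, where 21.9% were.

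Genes of the red cell membrane that other cells also use gave a mixed picture. Of 19 genes in this list, which includes 4 of the 11 restricted genes, 12 were at least 2-fold lower (40.5% of all genes) and 2 were higher (12.8%) in GFP-positive cells. In the tdTomato line 16 of the 19 were above 0 TPM in either library. Of these, 4 were lower (21.9%) and 3 higher (16.2%) in positive cells, which is near the shares of all genes. *Dmtn* (dematin) and *Add2* (beta adducin), which neurons also express, were at 142.8 and 79.2 TPM in GFP-negative cells and 113.8 and 110.6 TPM in tdTomato-negative cells. Their values thus did not show the gap seen for *Slc4a1*. Among 13 transcription factors and cofactors of red cells, *Nfe2* was at 8.37 TPM in GFP-negative cells and below 1 TPM elsewhere, while *Gfi1b* was listed at 0 in GFP-negative and was at 3.57 TPM in tdTomato-negative cells, the opposite order. *Tal1* was at 0.753 TPM in tdTomato-negative cells and listed at 0 elsewhere. *Lyl1* and *Lmo2*, which other blood cells use as well, were at 32.5 and 66.7 TPM in GFP-negative and 21.2 and 44.9 TPM in tdTomato-negative cells. Of these 13 genes, 12 were above 0 TPM in either library of each line. In the GFP line 7 of the 12 were at least 2-fold lower (40.5% of all genes) and none was higher. In the tdTomato line 3 of the 12 were lower (21.9%) and 1 was higher (16.2%). Among 5 genes of erythropoietin and stem cell factor signalling, *Jak2* was between 31.2 and 82.0 TPM.

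The genes whose pattern over the 4 libraries was most like that of *Alas2* were found by the Euclidean distance between centred log2(TPM + 1) values, over the 13009 genes that reached 10 TPM in 1 library or more. The 5 nearest were *Olfr464* (distance 0.17), *AI607873* (0.20), *Olfr1213* (0.26), *Gpr141* (0.28), and *Gm13212* (0.30), of which *Olfr464* and *Olfr1213* are odorant receptor genes. *Olfr464* was at 42.5, 2.26, 15.9, and 3.16 TPM in GFP-negative, GFP-positive, tdTomato-negative, and tdTomato-positive cells. *Slc4a1* ranked 158 at a distance of 1.01. With 4 libraries, such a distance describes these values only.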

How the data were processed

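RNA-seq values of 4 libraries of sorted MOE cells were used. The authors deposited 1 TPM value per gene symbol and library. The processing notes of the submitters name Trimmomatic 0.36, Salmon 1.4.0, and mm10, while the methods of the study name Hisat2, Cufflinks, and featureCounts for RNA-seq. These sources disagree on the tool behind the TPM values, of which Salmon gives TPM directly. The settings for reads from shared sequence and the annotation are not given in the sources used here. Groups were taken from the sample titles. The genes and lists were chosen with earlier results of these data known, and 2 lists and the comparison of the reporter-negative libraries were added after these values were seen. Some genes of these pathways are not reported here. The text could name every gene of the lists and the 5 genes with the pattern most like that of the highest member.

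TPM values were used as deposited. Differences are those of log2(TPM + 1), a scale that understates changes of low genes, and a gene was called at a difference of at least 1 (2-fold) among genes above 0 TPM in either library. No test was run, as each group has 1 library, and the unknown depth allows no interval or detection limit. The calculation was checked on made-up libraries with known changes. Older symbols were matched through RefSeq, which resolved every listed gene except *Ahsp* and *Hbb-bh0*. Gene positions, exon overlaps, and 50-base windows of protein-coding transcripts are from GENCODE M21 (GRCm38), and promoters from the RefSeq table of GRCm38.p6, which held no entry used for *Slc4a1*. Python 3.11.15, NumPy 2.4.6, and pandas 2.3.3 were used. Alternatives were other pseudocounts, TPM minimums, a larger fold, and 3 scalings of the libraries.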

Additional observations from a re-analysis of the deposited data

Results flagged for a closer look

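*Aqp1*, the gene of the water channel aquaporin 1 of red cells and several epithelia and vessels, differed in opposite directions in the 2 lines. In the GFP line it was at 14.1 TPM in negative against 1.09 TPM in positive cells, a difference of -2.86 on the log2(TPM + 1) scale, and in the tdTomato line at 0.0992 TPM against 5.93 TPM, a difference of 2.66. *Cyp2g1*, a cytochrome P450 gene of sustentacular cells, also differed in opposite directions, from 199.6 to 838.1 TPM in the GFP line (2.06) and from 248.2 to 84.9 TPM in the tdTomato line (-1.54). Under the 2-fold rule *Aqp1* was no longer called in the GFP line with scaling to mature OSN markers (-0.55) and in the tdTomato line with a pseudocount of 10 (0.66), and *Cyp2g1* in the tdTomato line with scaling to mature OSN markers (-0.50). The difference between the lines was not tested for either gene, since no group has more than 1 library. No other gene of the lists had at least 2-fold differences in opposite directions.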

How the results depend on the processing

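No paired analysis was possible because each comparison within a line sets 1 library against 1, the labels give no replicate pairs, and none of the values rests on a test. A fit with the line as a block was not run, since it would take different enhancers and reporters as replicates of 1 condition. A log2 difference is said to have moved when it changed by more than 0.58, and a count when it changed by more than 1.5 times. The scalings shifted the median of all genes, in the GFP and tdTomato lines respectively, by 0.74 and 0.13 (median ratio), 0.43 and 0.05 (without the highest genes), and 2.63 and 0.87 (to mature OSN markers). The *Alas2* difference stayed negative under every alternative. It was -2.34 with a pseudocount of 10, -2.75 with median-ratio scaling, and -0.71 with scaling to mature OSN markers in the GFP line, and -1.17 with a pseudocount of 10 and -0.94 with scaling to mature OSN markers in the tdTomato line. With a pseudocount of 10, *Slc4a1* was at -1.65 in the GFP line and -0.43 in the tdTomato line, and *Epb42* and *Klf1* were at -0.51 and -0.63 in the GFP line. Scaling to mature OSN markers gave -2.89, -1.68, and -1.81 for *Slc4a1*, *Epb42*, and *Klf1* in the GFP line. The median of the heme synthesis enzymes was 1.05 with median-ratio scaling in the GFP line, and 3.16 and 1.45 with scaling to mature OSN markers in the GFP and tdTomato lines. In the GFP line, scaling to mature OSN markers turned *Ppox* to 1.54, *Uros* to 1.21, and *Hmox1* to 1.54, by the shift it gives all genes. Genes taken as largely restricted to red cell precursors above 5 TPM numbered 5, 0, 0, and 0 in GFP-negative, GFP-positive, tdTomato-negative, and tdTomato-positive cells, and 3 and 2 were above 0 TPM in GFP-positive and tdTomato-positive cells. At a 4-fold difference, a log2 value of 2, 2699 genes were called lower and 1191 higher in positive cells of the GFP line, 1798 lower and 1293 higher in the tdTomato line, and 761 higher in GFP-negative than in tdTomato-negative cells. With median-ratio scaling, 3514 genes were called lower and 3668 higher in the GFP line, in place of 7283 and 2291. The unknown depth limits most the members below 1 TPM.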

Other observations

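Globin genes outside the red cell lineage did have values. *Mb*, the myoglobin gene, was at 2.77 TPM in negative against 4.47 TPM in positive cells of the GFP line, and at 0.984 TPM against 20.1 TPM in the tdTomato line. *Cygb*, the cytoglobin gene, was at 7.73, 2.87, 3.08, and 4.03 TPM in the same order, and *Ngb*, the neuroglobin gene, was at 1.70 TPM in GFP-negative cells and listed at 0 elsewhere. Among other red cell proteins, *Car2*, a carbonic anhydrase gene that many cells use, was at 130.5 and 281.8 TPM in GFP-negative and tdTomato-negative cells and at 37.0 and 36.0 TPM in GFP-positive and tdTomato-positive cells.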
